A study of Xenopus laevis with 31 samples.

Results

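The 209 probe sets described here were brighter in animal cap explants than in vegetal explants of the Xenopus laevis gastrula, and had like levels in the egg and in the gastrula. Xenopus laevis is the African clawed frog. They were found among the 15491 probe sets on the array that are not manufacturer's controls, and make up 40.6% of the 515 that show this animal-side bias at any egg level. A probe set was a member if its mean log2 intensity in the caps exceeded that in the vegetal explants by at least 2 (4-fold on the linear scale), if every cap array lay above both vegetal arrays, and if the egg mean lay within 1 (2-fold) of the stage 11 control mean. The members were thus chosen by measured differences between these groups, so the tissue bias and the steady level are descriptions and no test is given for them. Of the 209 members, 208 entered the tests, and the remaining one was left out because the scale of some of its values could not be settled.

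The study asked which transcripts are enriched in the gastrula endoderm and how nodal signalling, Mixer and Sox17 regulate them. Arrays came from animal cap explants (n = 3), explants of the Equatorial region (n = 2) and Vegetal endoderm explants (n = 2), all assigned to stage 11. The labels place the cutting of the caps at stage 9 and are silent on when the others were dissected, so tissue and explant handling cannot be told apart. Embryos injected vegetally at the 2-cell stage formed 3 groups. The Cerberus-Short group was given 1 ng of synthetic RNA encoding a secreted inhibitor of nodal ligands (n = 3). The Mixer-MO group was given a morpholino, an antisense oligonucleotide, at 40 ng to deplete Mixer, a homeodomain transcription factor (n = 2), while a title gives 32 ng for replicate 1. The Sox17-MO group was given a mixture of 3 morpholinos at 20 ng each, which target transcripts of the HMG-box factor Sox17 (n = 3). Whole eggs (n = 3), control embryos at stage 11, the gastrula (n = 9), and control embryos at stage 18, the neurula (n = 4), were given no reagent by the labels. Neither a control RNA nor a control morpholino was injected in any group, so injection and reagent cannot be told apart. Each sample pooled about 20 embryos or about 50 explants, so fewer cells of a type and less RNA per cell cannot be told apart. No strain or genotype is given.

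In the frog egg the pigmented animal side gives rise to the ectoderm, and the yolky vegetal side gives rise to the endoderm. The egg carries maternal RNA, some of it laid down unevenly along this axis, and transcription by the embryo begins at the mid-blastula transition. A steady level can therefore come from stable maternal RNA or from maternal RNA replaced by new transcripts, and an array does not separate these. Gene names are not used here, because 0 of the probe sets matched the gene table, which lists 44456 genes. Roles of the members, markers of ectoderm and endoderm, and the targeted genes were therefore not analysed here, and the label "animal-side" rests on the explants' names and on the members' own values.

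The members stood low on 6 arrays, including a vegetal array that the rule used to choose them. The arrays carry probe sets at the 3' and 5' ends of the beta-actin transcript, and their log2 difference becomes larger when 5' ends are lost from the RNA or its labelled copy. It lay between -0.39 and 1.70 on Vegetal endoderm replicate 2, Cerberus-Short replicate 2, Mixer-MO replicate 2, control embryo 11 replicates 7 and 9, and control embryo 18 replicate 2. It lay between -3.71 and -1.50 on the other 25 arrays. Relative to the stage 11 control mean, the median member had log2 values of -1.59 to -0.58 on 5 of the 6 arrays. On the 24 other arrays that are not vegetal it had -0.10 to 1.03. On the vegetal arrays, where the rule required values below the caps, it had -2.32 on replicate 2 and -0.90 on replicate 1. Over the 5 of the 6 arrays that are not vegetal, animal-side probe sets that were higher in the egg (n = 125) also lay below the control mean on 5. Those that were lower in the egg (n = 181) did so on 3 of 5, and vegetal-side steady probe sets (n = 98) on 3 of 5. The GAPDH 3' and 5' probe sets had a log2 difference of 2.75 to 3.90 on the same 6 arrays. On the others it was 0.92 to 2.59, apart from control embryo 18 replicates 1 and 3. These had 3.38 and 3.44, with member medians of -0.06 and 0.09. Whether RNA quality has a part in the results was not tested.

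**Figure D1:**
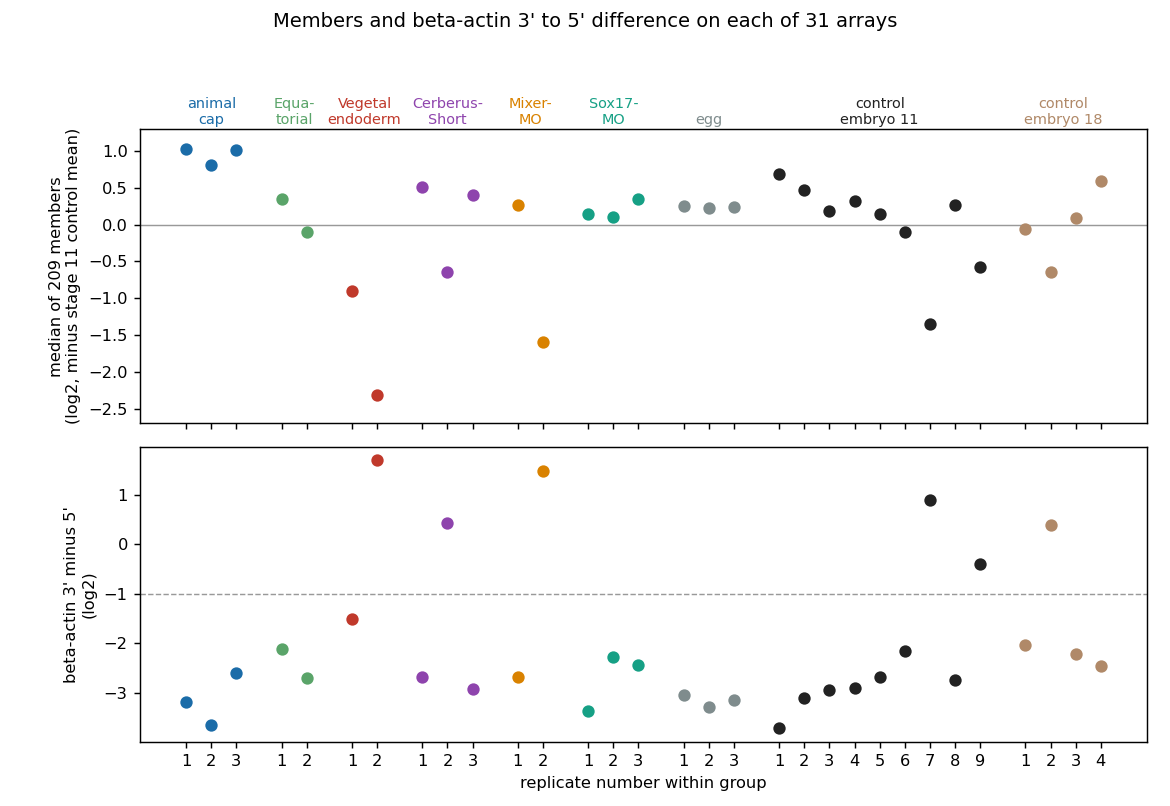
Median over the 209 members on each array (top, log2 intensity minus the mean of the stage 11 controls) and the log2 difference between the beta-actin 3' and 5' probe sets (bottom), 1 point per array, by group and replicate number. Of the 6 arrays above the dashed line at -1 in the lower panel, 5 are not vegetal and have member medians of -1.59 to -0.58. Vegetal endoderm replicate 2 has -2.32, and the rule chose members that were lower there than in the caps.

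Most members were brighter than the middle of the array. Their median mean intensity was 315 in animal cap explants (quartiles 187 and 601), 58.4 in Vegetal endoderm explants (quartiles 31.2 and 104) and 175 in stage 11 controls (quartiles 92.2 and 364). At stage 11, 159 of the 209 lay above the median of all probe sets, which was 72.5. Only 20 members had a vegetal level under an intensity of 16, against 5 in the stage 11 controls. Because intensities this low hold background, the size of a difference against them is uncertain.

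Cap and vegetal explants differed by a median of 2.44 on the log2 scale (quartiles 2.16 and 2.87, highest 5.08). The members nearest the limit had differences of 2.006, 2.006 and 2.008, and the first probe sets beyond it had 1.999, 1.994 and 1.992, so the limit divides a continuous range. Much of the difference came from 1 vegetal array. Against Vegetal endoderm replicate 1 the median difference was 1.94 and 96 members reached 2. Against replicate 2, which has the highest beta-actin difference of the series, the median was 3.20 and 198 members reached 2. Replicate 2 lay below replicate 1 for 169 members (80.9%), by a median of -1.33, while 40.0% of all probe sets lay lower there and the median of all was 0.12. Chosen with replicate 1 alone the list had 118 members, of which 96 are among the 209, and chosen with replicate 2 alone it had 431, of which 198 are.

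Most array titles carry a letter, and most letters recur across groups. Animal cap replicates 1 and 2 share the letter B with Vegetal endoderm replicate 1. Within that letter the caps lay above the vegetal explants for all 209 members, by a median of 1.83, with 86 at 2 or more and 184 at 1 or more. These arrays chose the members, so the count of 209 was fixed by the rule, and the other values describe the size of the difference where Vegetal endoderm replicate 2 is left out.

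**Figure D2:**
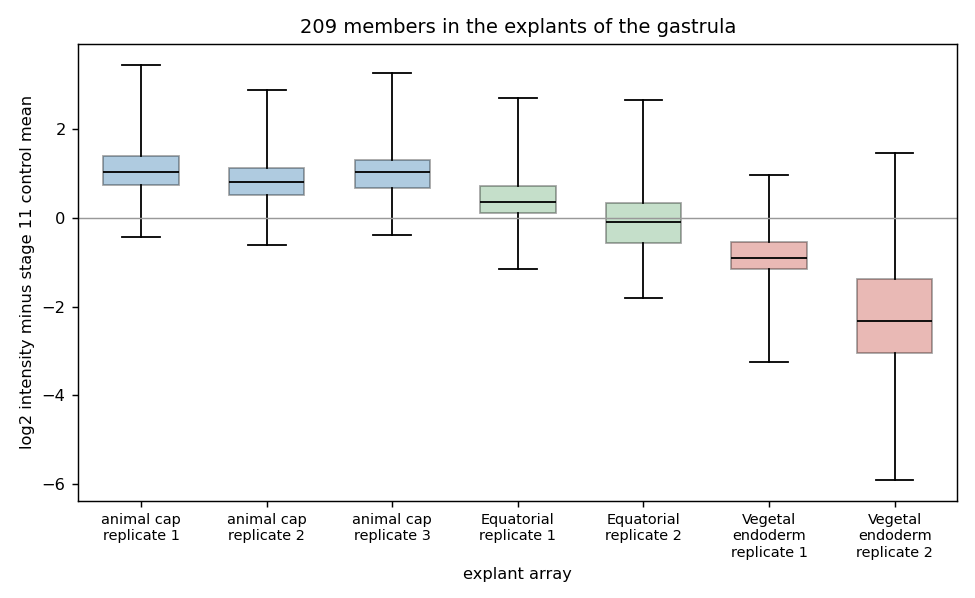
Log2 intensity of the 209 members minus the mean of the stage 11 controls on each explant array (box, quartiles and median; whiskers, lowest and highest member). The cap medians lie at 0.81 to 1.03, the Equatorial medians at -0.10 and 0.35, and the Vegetal endoderm medians at -0.90 and -2.32.

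The largest cap excess belonged to Xl.25460.1.A1_at. Its intensity was 1089, 898.5 and 820.0 in the caps, against 28.35 and 26.49 in the vegetal explants, a ratio of the geometric means of 33.9. The cap and vegetal values were far apart, and both vegetal arrays were low. It was at 435.1 and 393.3 in Equatorial explants. It had 189.7, 241.3 and 233.2 in eggs, a median of 251.9 in stage 11 controls (lowest 161.4, highest 561.9), and 501.2, 444.9, 546.3 and 427.9 at stage 18. The stage 11 range took in every egg value, and it took in the stage 18 values only through replicate 9, at 561.9. The other controls had 161.4 to 318.0, below every stage 18 array, and every stage 18 array lay above every egg. Replicate 9 has the title letter f, as have Cerberus-Short replicate 2, at 876.2, and Sox17-MO replicate 2, at 644.9. In injected embryos it ran from 102.4 to 876.2 under Cerberus-Short, 223.9 to 309.9 under Mixer-MO and 242.5 to 644.9 under Sox17-MO, and each of these ranges overlapped the controls.

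Xl.8143.3.S1_a_at came next, with a ratio of 33.7, and showed the other kind of vegetal pattern. It had 2919, 2559 and 2196 in the caps, against 276.1 and 20.65 in the vegetal explants. The caps lay above both vegetal arrays, and the lower vegetal value was on replicate 2. This probe set was low on the 6 arrays of every group they came from. It was at 56.75 on Mixer-MO replicate 2 and 948.4 on replicate 1, at 183.3 on Cerberus-Short replicate 2 and 1353 and 1359 on the others, and at 107.4 and 315.5 on control embryo 11 replicates 7 and 9, where the other 7 controls had 808.2 to 1884. At stage 18 it was at 101.7 on replicate 2 and at 1164, 1171 and 1707 on the rest.

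Equatorial explants took a middle place. Their mean lay between the caps and the vegetal explants for 197 members, above the caps for 11 and below the vegetal explants for 1. The median member stood 69.0% of the way (on the log2 scale) up from the vegetal to the cap level, with quartiles of 49.6% and 83.8%. The vegetal level here is the mean of both vegetal arrays, whose member medians were -0.90 (replicate 1) and -2.32 (replicate 2) relative to the control mean. The position against replicate 1 alone was not computed. Since cap and vegetal arrays chose the members, this position is a description. Equatorial against whole stage 11 embryos was tested on arrays the choice did not use, apart from the controls. At an adjusted p under 0.05 (limma, Benjamini-Hochberg over all probe sets) and a change of 2-fold, 0 of 208 members were called, against 0.2% of all probe sets. At an unadjusted p under 0.05 there were 7 of 208 members and 417 of all 15473 probe sets. Against a share of 0.2%, 0 of 208 does not set the members apart from the array. A fit that took the title letter as a fixed block called 1 member, and its share over all probe sets is not given here. The median member difference was 0.16, with 134 of 208 above 0, and the median of all probe sets was -0.01. Without the 6 arrays the median over the members was -0.14, with 85 of 209 above 0, so its direction depended on those controls. The pair that shares the letter H gave 0.41 for Equatorial replicate 1 against control embryo 11 replicate 6.

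From egg to gastrula the level was steady by choice. The egg lay above the stage 11 mean for 134 members and below it for 75, with a median difference of 0.25 (quartiles -0.29 and 0.57, from -0.97 to 0.99), and 114 members lay within 0.5. The first probe sets outside the band had 1.01 and 1.02 above it and -1.03 and -1.003 below it. The 3 eggs resembled each other closely, with member medians of 0.25, 0.23 and 0.25, and the members' SD over eggs had a median of 0.21 (0.19 over all probe sets). The stage 11 controls did not. The members' SD over 9 controls had a median of 0.79, against 0.34 for all probe sets, and over the 7 controls without replicates 7 and 9 it was 0.43, against 0.29. All 3 eggs carry the title letter L, which no other array has, while the controls carry several letters or none. Stage and letter therefore cannot be told apart between egg and stage 11, and the 2 SDs compare a single letter with several. Control embryo 11 replicate 7 was the lowest of the 9 for 151 members (72.2%) and for 21.6% of all probe sets. Against the 7 other controls the egg was lower by a median of -0.02, and 189 members stayed inside the band while 20 fell below it and 0 rose above it. For those 20 the word steady holds only with the low controls included.

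Between gastrula and neurula the share of members called was not above that of the array in the main fit. Stage 18 against stage 11 was tested with a minimum change of 2-fold, and 42 of 208 members were called, against 26.5% of all probe sets. Of these, 21 (10.1%) were higher, against 12.3% of all, and 21 (10.1%) were lower, against 14.3% of all. Without the 6 arrays 19 were higher and 33 lower, and without control embryo 11 replicate 7 alone 34 were lower. The shares of all probe sets called in these refits are not given here, so these counts do not show a trait of the members. Chosen without Vegetal endoderm replicate 2, the list held 9 lower calls among 116 tested, and chosen without replicate 1 it held 62 among 430. The median change was 0.05 for members and 0.04 for all probe sets, and without the 6 arrays both turned, to -0.06 and -0.03. By size alone, 26 of 208 members were higher and 28 lower by 2-fold or more, which was not counted over all probe sets. A call also depends on the spread among arrays, and the SD over 9 controls had a median of 0.79 for members and 0.34 for all. Whether this spread has a part in the share called was not tested. At an unadjusted p under 0.05 there were 64 of 208 members, against 8383 of all 15473 probe sets. The same test gave calls for 45.2% of the animal-side probe sets that were lower in the egg (27.7% higher), for 16.1% of those higher in the egg, and for 31.6% of the vegetal-side steady ones, and the differences between these shares were not tested. Stage 11 controls enter both this comparison and the egg band. The mean level stayed within 2-fold of both the egg and stage 11 for 121 members (57.9%), against 65.1% of the 11887 probe sets that meet the egg band.

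The 21 higher ones changed by 1.01 to 4.70, with a median of 1.82, and had a median stage 11 intensity of 66.9. The 21 lower ones changed by -2.39 to -1.05, with a median of -1.61, and had a median stage 11 intensity of 173. The 166 that were not called had 160. The stage 11 level is a term of the change that divides these members, so its difference between them is a description. The groups of arrays did not overlap for 13 of the higher and 12 of the lower members, and for 1 that was not called. This was not counted over all probe sets, so whether these numbers are high or low for the array is not known. Within letter B the cap excess reached 2 for 15 of the 21 higher members, 7 of the 21 lower and 63 of the 166 others. In Equatorial explants the higher members stood at a median of 48.5% of the way from vegetal to cap, the lower at 60.1% and the others at 71.8%. Control embryo 11 replicate 7 lay below the other controls by a median of -0.80 in the higher members, -0.51 in the lower and -1.65 in the others. This array is among those of the test that divides the members, and its value enters both the stage 11 mean and the spread. Its difference between them is therefore a description as well.

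**Figure D3:**
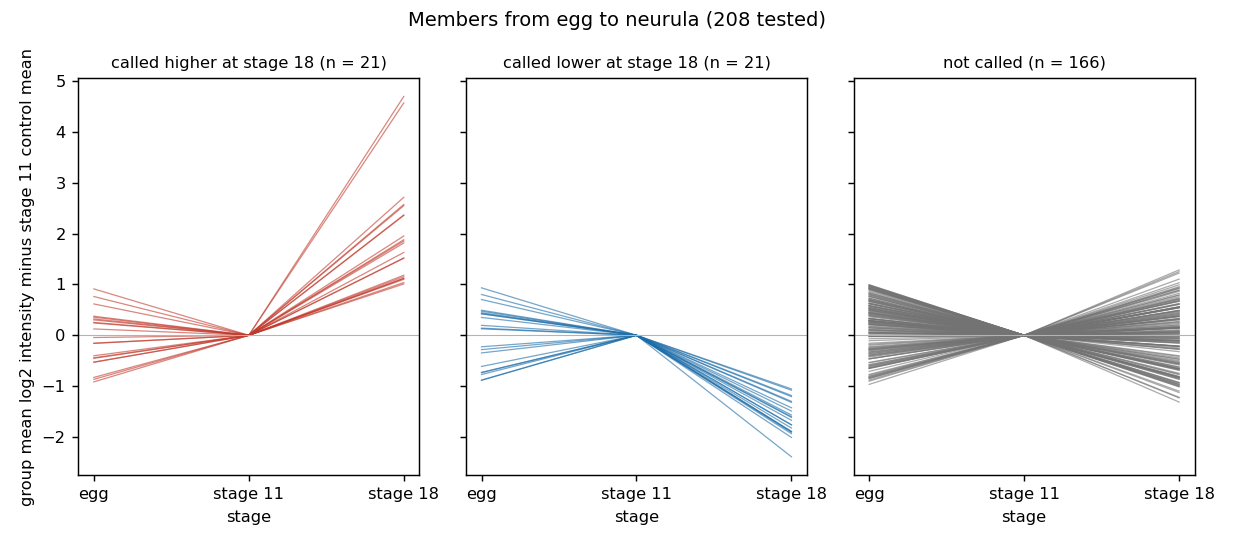
Group mean log2 intensity of each tested member in eggs, stage 11 controls and stage 18 controls, minus its stage 11 mean, with members called higher (n = 21), called lower (n = 21) and not called (n = 166) in separate panels; 1 line per member. All lines lie within 1 of zero at the egg by choice, and the highest line reaches 4.70 at stage 18.

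Xl.5846.19.S1_at changed most among the higher members. It had 480.9, 872.4, 329.9 and 841.2 at stage 18, and in stage 11 controls the lowest value was 11.46, the median 18.58 and the highest 131.9. The stages did not overlap. The change was 4.70 (SE 0.61, limma adjusted p = 4.27e-07), and eggs, at 16.10, 12.51 and 18.82, stood near the low gastrula values. Its highest stage 11 control was replicate 9, with the title letter f. The injected arrays of that letter were high as well, at 194.6 on Cerberus-Short replicate 2 and 153.7 on Sox17-MO replicate 2, where the other injected arrays had 13.63 to 25.57. In the caps it had 116.1, 84.68 and 22.86, against 12.51 and 17.88 in vegetal explants.

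Xl.2209.1.S1_at followed, with 285.4, 392.4, 511.1 and 436.6 at stage 18, where stage 11 controls had a lowest value of 10.09, a median of 12.93 and a highest of 100.1. These values did not overlap either, and the change was 4.57 (SE 0.51, limma adjusted p = 4.35e-08). It too was at its highest stage 11 control level on replicate 9, with 90.29 on Cerberus-Short replicate 2 and 38.14 on Sox17-MO replicate 2. Both probe sets were near the bottom of the scale in eggs (10.25 to 12.82 for Xl.2209.1.S1_at), as in most stage 11 controls.

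Among the lower members, Xl.7863.1.S1_at had 10.37, 19.45, 8.705 and 8.219 at stage 18, where stage 11 controls had a lowest value of 38.24, a median of 54.89 and a highest of 91.54. It fell by 2.39 on the log2 scale (SE 0.24, limma adjusted p = 7.3e-09) with no overlap. Eggs had 43.17, 85.76 and 76.71, and caps had 284.8, 202.0 and 246.5, against 18.90 and 18.56 in vegetal explants. Control embryo 11 replicate 7 was its highest control, and the stage 18 drop stood on all 4 arrays.

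Xl.4492.1.A1_at had 150.6, 60.69, 80.64 and 102.8 at stage 18, where stage 11 controls had a lowest value of 157.5, a median of 303.6 and a highest of 942.8. The groups came close to each other without overlap. It fell by 2.01 on the log2 scale (SE 0.56, limma adjusted p = 0.00417), and the adjusted p was 0.052 once the title letter entered as a fixed block. Its eggs were spread out, at 670.6, 53.48 and 236.3.

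**Figure D4:**
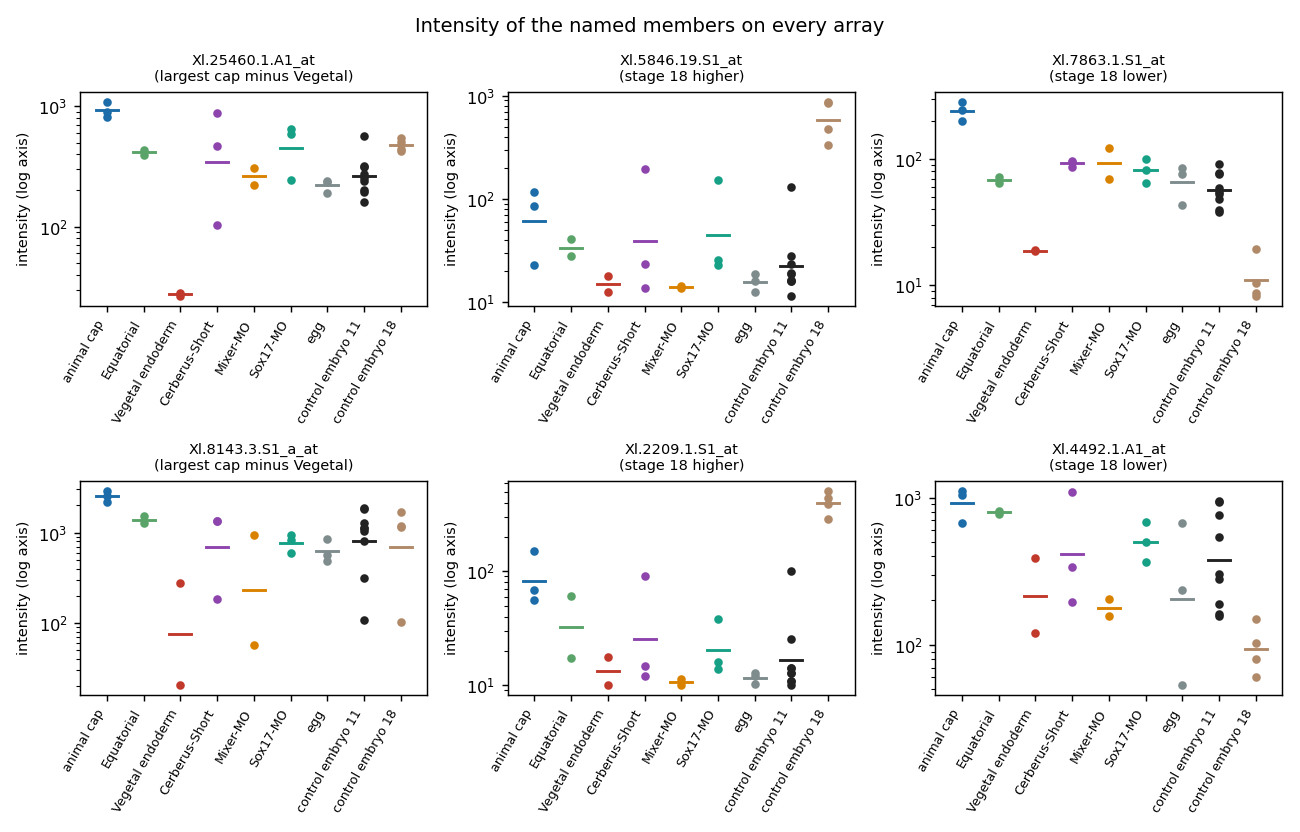
Intensity (log axis) of the 6 members named for the size of their tissue or stage difference, in every group; points are arrays and bars are geometric means. The 2 members called higher at stage 18 lie at 285.4 or more there and at 131.9 or less in stage 11 controls, and the 2 called lower lie below every stage 11 control.

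No member was called in Cerberus-Short embryos. In Cerberus-Short embryos against stage 11 controls, 0 of 208 members passed an adjusted p under 0.05 (limma), against 0.33% of all probe sets. With so small a share over all, 0 of 208 does not set the members apart from the array. An unadjusted p under 0.05 was found for 3 of 208 members and for 326 of all 15473 probe sets. The median member change was 0.04 (0.01 over all), with 117 above 0 and 91 below. Without the 6 arrays the median was 0.12 (0.0045 over all), with 150 of 209 above 0, so the near-even split depended on those arrays. The 3 arrays had member medians of 0.51, -0.64 and 0.40 relative to the control mean, and the low one is replicate 2 of the 6 arrays named above. Paired by title letter with their controls, they gave 0.14 (letter D), -0.09 (letter f) and 0.41 (letter H). The groups overlapped.

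Mixer-MO embryos had no called member, and a median shift that rested on 1 array. Against stage 11 controls 0 of 208 members passed (limma), against 0.0646% of all probe sets, so the 0 does not set the members apart. An unadjusted p under 0.05 was found for 17 of 208 members and for 1255 of all 15473 probe sets. The median member change was -0.69 (-0.01 over all), with 194 of 208 below 0 and 43 lower by 2-fold or more. This median joined an array at 0.26, replicate 1, and one at -1.59, replicate 2, whose beta-actin difference was 1.49. Replicate 2 and its control of the same letter, control embryo 11 replicate 7 (beta-actin difference 0.90), differed by a median of -0.22, with 159 members lower. Replicate 1 differed by -0.02 from control embryo 11 replicate 8, the other array without a letter. Without the 6 arrays, which leaves replicate 1 alone, the median was -0.03 with 95 members above and 114 below 0. Both the size and the direction over the 2 arrays rested on replicate 2.

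Sox17-MO embryos had no called member either, with 0 of 208 passing (limma), against 0.944% of all probe sets. Few calls among 208 would match that share, so the 0 does not set the members apart. An unadjusted p under 0.05 was found for 3 of 208 members and for 1267 of all 15473 probe sets. The median member change was 0.19 (0.04 over all), with 157 above 0. The 3 arrays had member medians of 0.14, 0.11 and 0.35, inside the range of the controls. Without the 6 arrays, of which 2 are controls, the median turned to -0.08 with 121 of 209 below 0. In that fit 3 members passed: Xl.11384.1.S1_at was higher by 1.11 (limma adjusted p = 0.0417), and Xl.17318.3.S1_a_at and Xl.8919.1.S1_x_at were lower, at -1.13 and -1.07 (limma adjusted p = 0.0132 and 0.0444). These 3 were singled out after their values were seen. Xl.8919.1.S1_x_at was the only one of 3 member probe sets of its transcript cluster to pass. The share of all probe sets called in that fit is not given here, so the 3 calls do not show a trait of the members. Xl.11384.1.S1_at is also among the 21 members called higher at stage 18. By title letter the pairs gave -0.04 (letter C), 0.64 (letter f, whose control is replicate 9) and 0.19 (letter G). Among the related lists, the 177 tested animal-side probe sets that were lower in the egg held 5 calls in this comparison, and the difference from the members was not tested.

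Differences between the injected groups were tested directly. For Mixer-MO against Sox17-MO, 0 of 208 members passed (limma), against 0.769% of all. An unadjusted p under 0.05 was found for 39 of 208 members and for 2056 of all 15473 probe sets. The median difference was -0.87 (-0.06 over all, 200 members below 0). For Cerberus-Short against Mixer-MO, 0 passed (limma), against 0.22% of all, with a median of 0.72. The counts at an unadjusted p under 0.05 were 22 of 208 members and 1486 of all 15473 probe sets. For Cerberus-Short against Sox17-MO, 0 passed (limma), against 0.491% of all, with a median of -0.14. The counts at an unadjusted p under 0.05 were 3 of 208 members and 1045 of all 15473 probe sets. Without the 6 arrays, Cerberus-Short replicate 2 among them, this comparison called Xl.17318.3.S1_a_at, higher by 1.46 (limma adjusted p = 0.027). The share of all probe sets called in that fit is not given here. The first 2 of these comparisons contain Mixer-MO replicate 2, and all contain shared groups, so their medians are given side by side only. The shares over all were under 1% here too, so 0 of 208 does not set the members apart. A p that misses the threshold does not show that the groups had equal levels.

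The choice did not use the identifiers of the probe sets. Their identifiers name 195 transcript clusters, and 13 clusters hold more than 1 member, 27 members in all. The probe sets of one cluster need not measure separate genes, so these members are not independent. In 12 of the 13 clusters the members had 1 sign at stage 18, which was not counted for other clusters of the array. Of the clusters with a member, 78 also hold a probe set that is not a member. Probe sets whose identifier ends in _a_at, which the manufacturer uses for probes that match several transcripts of a gene, made up 15.3% of the members and 3.46% of all probe sets. Those ending in _s_at and _x_at, which can match other genes, made up 5.26% and 4.31% of the members and 2.21% and 3.58% of all. Most members, 75.1%, ended in _at without such a letter, against 90.7% of all. These shares were not tested.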

How the data were processed

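Total RNA was hybridised to Affymetrix Xenopus arrays, and the submitters' processing notes name GeneSpring 7.1 and RMA. The authors deposited 1 normalized intensity, on a linear scale, for each probe set on each array. In the table, intensities of 1000 and more carry a digit-group mark in the place of a decimal point. These were restored from their size and form, which settled 90.5% of 483941 values. The other 45801 values were read from the nearest settled value of their probe set. In 20 probe sets no value was settled. These kept their written level and stayed in the tests. In a test that hid 5101 settled values, 5095 were recovered. Only 150 of the hidden values were 1000 or more, and 149 of these were recovered. Of 15491 probe sets, 18 stayed undecided and were left out, and 15473 were tested on the log2 scale.

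Members were found by the stated rule, and the members and lists were chosen with earlier results of these data known. Limma 3.58.1 in R 4.3.3 (lmFit, eBayes, two-sided, Benjamini-Hochberg over all probe sets tested) fitted 1 mean per group over 31 arrays, leaving 22 residual degrees of freedom. The model was tested on simulated data with independent errors, which leave out any likeness between arrays of a title letter. Of simulated 3-fold changes, placed at random among all tested probe sets, 75.6% were recovered as a mean over the comparisons. Recovery among the members was not computed. A call needed an adjusted p under 0.05, and for Equatorial and stage comparisons also a change of 1 on the log2 scale. Each sample pooled siblings of a single mating, but which samples shared one is not given, and p-values cover only the spread among these samples. Named members are at most 2 higher and 2 lower per comparison, those with the largest change among calls whose groups do not overlap, besides the 2 with the largest cap excess. The number of arrays limits precision, and the depth of signal over background was not analysed here. No sequences are printed, because no table used here pairs the probe sets with any.

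Alternatives covered normalization, pseudocount, a filter on low values, the variance model, replicate number or title letter as a block, which arrays were fitted, array weights, single arrays left out and the choice of members. Same-numbered samples of different groups did not deviate together as a rule (88 pairs, median correlation 0.03, from -0.52 to 0.67, 35 below 0). Replicate numbers therefore do not pair the samples over the whole series. Within letter B, stage 11 control and cap arrays of the same number had correlations of 0.43 and 0.44. With the numbers crossed they had -0.10 and -0.11. Arrays that share a title letter had a median correlation of 0.31 over 30 pairs, of which 7 lay below 0. Where such a pair joined an injected array to a stage 11 control, the correlations were higher, at 0.52 to 0.85. The main fit held no term for the letter. Its p-values for injected embryos against controls therefore leave this likeness out of account.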

Additional observations from a re-analysis of the deposited data

Results flagged for a closer look

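In groups of 4 to 9 arrays, 4 values stood far from the rest of their group by the gap to the nearest array. Such gaps were examined in 16 groups of values, and chance alone gives about 1 in 20. Xl.8143.3.S1_a_at had a log2 intensity of 6.67 on control embryo 18 replicate 2, low among the 4 arrays. The beta-actin 3' minus 5' difference of that same array was 0.38, high among the 4. Xl.5846.19.S1_at had a log2 intensity of 7.04 on control embryo 11 replicate 9, high among the 9 controls, and Xl.2209.1.S1_at had 6.65 on the same array. Whether RNA quality or whatever the title letter f stands for has a part in these values was not tested.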

How the results depend on the processing

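Of 241 recomputed counts of called members, 224 stayed within 1.5 times the reported count. Most of these belong to comparisons with a reported count of 0, where a count stayed only if it was again 0. For stage 18, 29 of 30 recomputed counts of higher members and 25 of 30 of lower members stayed. A replicate block is not borne out by the samples' deviations over the whole series. With it, 9 members were called for Mixer-MO against control, 8 for Mixer-MO against Sox17-MO and 1 for Cerberus-Short against Mixer-MO. Stage 18 then had 15 higher and 48 lower. Array weights gave 2 calls for Sox17-MO, and the title letter as a fixed block gave 1 for Equatorial explants. An alternative chosen after seeing the data, without the 6 arrays of high beta-actin difference, gave 3 for Sox17-MO, 1 for Cerberus-Short against Sox17-MO, and 33 lower at stage 18. Leaving out the 40% lowest probe sets gave 12 higher at stage 18. With single arrays left out, stage 18 had 15 to 27 higher and 18 to 34 lower members (34 without control embryo 11 replicate 7), Cerberus-Short against Mixer-MO had 0 to 1 (1 without Cerberus-Short replicate 3), and the other 6 comparisons had 0 throughout. Members chosen without Vegetal endoderm replicate 1 held 62 lower calls at stage 18 and those chosen without replicate 2 held 9, and the list chosen without replicate 2 had 1 call each for Sox17-MO, Mixer-MO against Sox17-MO and Cerberus-Short against Sox17-MO. These lists have other sizes. The number of members was 441 and 94 at limits of 1.5 and 2.5, 114 at an egg band of 0.5 and 135 with a pseudocount of 16. All 42 stage 18 changes kept their sign, and 12 of 21 higher and 12 of 21 lower calls held in all 24 or 25 alternatives that tested them. The shares of all probe sets called under each alternative are not given here, so a moved count does not show a trait of the members. The causes of these shifts were not tested.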
